A study of Mus musculus with 12 samples.

Results

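The potassium channel genes were taken as all genes of the deposited expression table whose symbol starts with *Kcn* followed by a letter and that had, on average, at least 20 sequenced fragments counted per library over all 12 libraries. This left 47 members of 94 *Kcn* genes, among 20368 genes in the table. The libraries were made from whole embryonic hearts of CD1 mice at E11.5 and E12.5. Controls were *Mesp1Cre;Hira+/fl* and mutants were *Mesp1Cre;Hira-/fl*, with 3 libraries in each of the 4 groups. *Mesp1Cre* recombines in early cardiac progenitors and their descendants, so cells of the heart from other lineages, such as neural crest, still carried functional HIRA, a histone H3.3 chaperone. Both genotypes carried the Cre and 1 floxed allele, and the other allele was wild type in controls and constitutively null in mutants. The labels do not say that the libraries of a group came from separate embryos, so p-values measure only the spread between these libraries.

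Potassium channels let potassium ions leave the cell and thereby set the resting potential and repolarise the membrane after an action potential. The voltage-gated (Kv) families open on depolarisation, and in cardiomyocytes Kv4 channels with *Kcna4* carry the transient outward current of early repolarisation, while *Kcnh2* and *Kcnq1* carry the delayed rectifier currents that end the action potential. Inward rectifiers (*Kcnj*) hold the resting potential or respond to acetylcholine and ATP, the two-pore-domain (K2P) channels pass a background current, and calcium-activated channels (BK, SK and IK) link membrane potential to intracellular calcium. Accessory subunits (*Kcne*, *Kcnab*, *Kcnip*, *Kcnmb*) change the gating and transport of the pores.

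The members were chosen by their mean count over all 12 libraries, so their presence is not a result. Of the members, 45 lie on autosomes, and *Kcnd1* and *Kcne1l* lie on chromosome X. *Kcnab3*, an accessory Kv beta subunit, was just inside the limit with a mean of 21.4 counts, and *Kcne2*, a partner of the *Kcnh2* channel, was just outside with 16.0. The limit depended on the genotype for a few members: *Kcnab3* had a mean under 20 counts over the 6 control libraries, and *Kcnip4* had one over the 6 mutant libraries. The 47 *Kcn* genes under the limit included 16 with a mean under 1 count. Among those under it were *Kcnip2*, the accessory subunit of Kv4 channels, with a mean of 7.58 counts, and *Kcnma1*, the BK pore, with 11.2.

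Depth was similar among groups, and each library held 11994148 to 17483982 counts on genes that the authors compared, of which 0.0478% to 0.0671% fell on the members. *Hira* was counted over the whole gene, exons outside the floxed part included, and ran from 61.0 to 86.3 CPM (counts scaled to library size) in control and from 56.6 to 80.4 in mutant libraries, so it does not check the genotype labels. By Y-linked counts, the E11.5 controls were all male, 1 of 3 E11.5 mutants was male, and each E12.5 group held 1 male. All 9 cardiomyocyte markers were detected, with a summed level of 17507 to 24556 CPM, and none of them passed the test between genotypes at either stage. Changes are given as log2 fold changes with the standard error and the adjusted p of edgeR's quasi-likelihood test over 12243 genes. A gene was called changed where the adjusted p did not exceed 0.05 and the level differed by 1.5 times or more.

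Per kilobase of gene length, the delayed rectifier *Kcnh2* (ERG1) had the highest mean of the members, at 27.4 RPKM over the 12 libraries. Its range was 19.4 to 36.0. *Kcnk3* (TASK-1), a background channel, followed at 17.7 RPKM (range 11.1 to 25.4). *Kcng2*, a silent Kv subunit that forms channels only together with Kv2 subunits, had 14.5 RPKM (11.2 to 17.4). *Kcnj5*, a subunit of the acetylcholine-activated channel, stood at 13.4 RPKM (9.94 to 18.0). *Kcne1l* stood at 12.4 RPKM (6.24 to 24.9) and *Kcne1*, the partner of *Kcnq1*, at 12.1 RPKM (8.56 to 17.9). The ranges of *Kcnk3*, *Kcng2*, *Kcnj5*, *Kcne1l* and *Kcne1* overlap, so their order is not resolved. The range of *Kcnh2* also overlaps those of *Kcnk3* and *Kcne1l*. In E11.5 control replicate 3, *Kcne1l* (24.9 RPKM) was above *Kcnh2* (19.4 RPKM). Only these 6 members had a mean of at least 10 RPKM, 27 members had at least 1, and the median was 1.19. The 3 most counted members, *Kcnh2*, *Kcnk3* and *Kcnj5*, held 42.4% of all counts on the members.

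**Figure D1:**
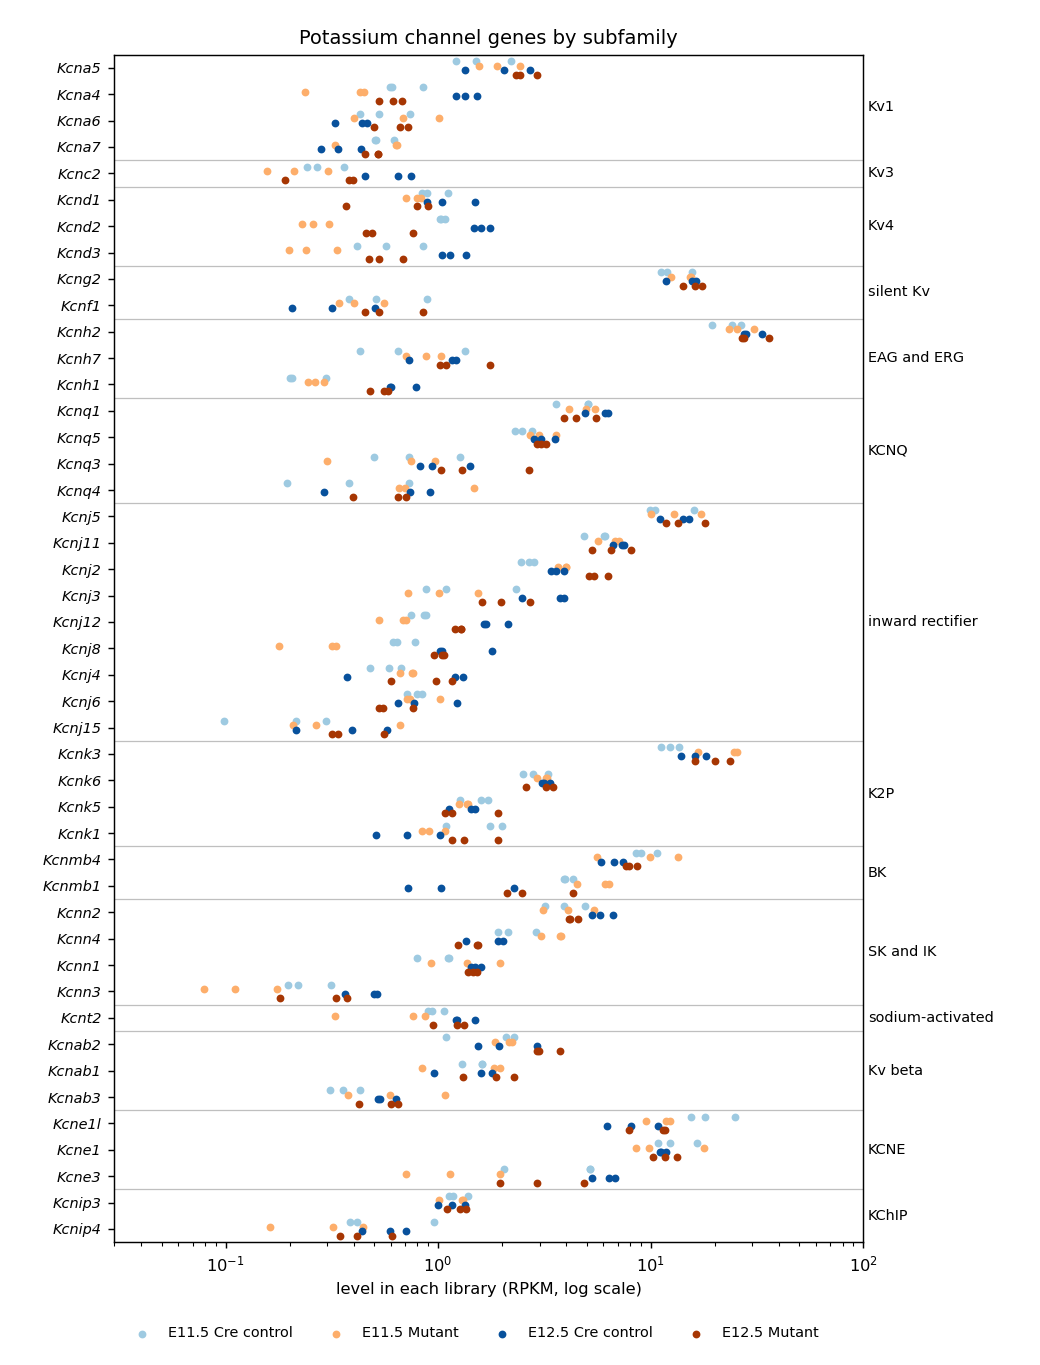
Level of 45 of the 47 members in each of the 12 libraries, in RPKM on a log scale, grouped by subfamily, with 1 point per library and colour for the group. *Kcnh2*, *Kcnk3*, *Kcng2*, *Kcnj5*, *Kcne1l* and *Kcne1* form the upper end, and the Kv4 members stand between 0.1 and 2 RPKM.

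The subfamilies differed in how many of their genes reached the limit, which describes the choice of members and is not a result. All 3 Kv4 genes, all 3 *Kcnab* genes and all 4 SK and IK genes were members. In contrast, 4 of 14 K2P genes, 2 of 10 silent Kv genes and 2 of 6 BK genes were. Kv1 gave 4 of 8 genes, EAG and ERG 3 of 8, KCNQ 4 of 5, and the inward rectifiers 9 of 15. Summed over members, the inward rectifiers had 24.9 ± 4.41 RPKM (SD, n = 3) in E11.5 controls and 33.0 ± 2.30 in E12.5 controls. The Kv4 sum was far lower, at 2.60 ± 0.38 and 3.92 ± 0.34 RPKM in E11.5 and E12.5 controls, and at 1.30 ± 0.15 and 1.82 ± 0.18 RPKM in E11.5 and E12.5 mutants.

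The first question was which members changed in mutant hearts. At E12.5, 5 of the 45 autosomal members were called, beside 3% of all genes tested. Of these 3 fell, beside 1.37% of all genes, and 2 rose, beside 1.63%. The Kv4 pores *Kcnd2* and *Kcnd3* and the Kv1 pore *Kcna4*, which carry the transient outward current, fell by 1.48, 1.06 and 1.15 on the log2 scale. *Kcnj2*, the main inward rectifier of the resting potential, rose by 0.64. These 4 named members also had a mean of at least 20 counts over the 6 control libraries. At E11.5, 1 member was called, *Kcnd2*, which fell, beside 0.114% of all genes in either direction and 0.0653% that fell. The groups did not overlap for 14 of 45 members at E11.5 and for 14 of 45 at E12.5, beside 16.5% and 26.4% of all genes. In bulk hearts, fewer cells of a type and less RNA per cell cannot be told apart. The median log2 fold change of the members was 0.07 at E11.5 and 0.00 at E12.5, beside 0.00 and 0.00 over all genes.

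*Kcnd2* (Kv4.2; chromosome 6, 21215503 to 21729805 on GRCm38) had 4.64, 4.67 and 4.90 CPM in the 3 E11.5 controls and 1.17, 1.39 and 1.04 CPM in the 3 mutants. Every mutant heart lay far below every control, with a spread between libraries that was small in both groups. The log2 fold change was -1.97 (SE 0.28, edgeR adjusted p = 0.0496), a 3.91-fold lower level. At E12.5 it had 6.71, 7.93 and 7.22 CPM in controls and 2.09, 2.22 and 3.48 CPM in mutants, again without overlap. The log2 fold change at E12.5 was -1.48 (SE 0.23, edgeR adjusted p = 0.00673). The E11.5 call was close to the threshold and was lost when any 1 of the 6 libraries was left out, with log2 fold changes from -2.09 to -1.89 and adjusted p from 0.0581 to 0.303. With sex as a covariate the E11.5 value was -2.17 (adjusted p = 0.0884, edgeR), and its adjusted p spanned 3.92e-05 to 0.303 over the alternatives.

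*Kcnd3* (Kv4.3), the second Kv4 pore, had 4.12, 3.01 and 6.16 CPM in E11.5 controls and 1.43, 2.42 and 1.73 CPM in E11.5 mutants. The groups did not overlap, but the controls were scattered and the log2 fold change of -1.24 (SE 0.36) had an adjusted p of 0.237 (edgeR). At E12.5 it had 9.81, 7.54 and 8.21 CPM in controls and 4.93, 3.80 and 3.42 CPM in mutants. This was a log2 fold change of -1.06 (SE 0.20, edgeR adjusted p = 0.0141). Without E12.5 control replicate 1 the call was lost (adjusted p = 0.0634, edgeR), with a log2 fold change of -0.95, and its adjusted p spanned 0.000505 to 0.0826 over the alternatives. The annotation has an antisense transcript, *Kcnd3os*, over 165 exonic bases of *Kcnd3*, and use of the strand in counting is not stated.

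*Kcna4* (Kv1.4), the slower transient outward channel, had 2.94, 2.88 and 4.13 CPM in E11.5 controls and 2.08, 1.15 and 2.16 CPM in mutants. All mutants were below all controls, with a log2 fold change of -0.89 (SE 0.34, edgeR adjusted p = 0.395). At E12.5 it had 6.45, 5.85 and 7.41 CPM in controls and 2.56, 3.28 and 2.96 CPM in mutants. The log2 fold change was -1.15 (SE 0.20, edgeR adjusted p = 0.0115), and it was called whichever library was left out. The X-linked Kv4 gene *Kcnd1* was not called at either stage, with log2 fold changes of -0.26 (SE 0.31) and -0.72 (SE 0.37).

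*Kcnj2* (Kir2.1) went the other way. It had 15.4, 14.6 and 13.4 CPM in E11.5 controls and 21.7, 21.7 and 19.9 CPM in E11.5 mutants, a log2 fold change of 0.54 (SE 0.14, edgeR adjusted p = 0.199). At E12.5 it had 21.2, 19.6 and 18.5 CPM in controls and 34.1, 29.7 and 27.9 CPM in mutants. All mutants were above all controls at both stages. The E12.5 log2 fold change was 0.64 (SE 0.11, edgeR adjusted p = 0.00937), and without mutant replicate 1 it was 0.55, under the fold threshold (adjusted p = 0.0370, the highest of all alternatives, the lowest being 0.000169). Its close relative *Kcnj12* (Kir2.2) had log2 fold changes of -0.38 (SE 0.31) and -0.52 (SE 0.22) at E11.5 and E12.5, and was not called. For *Kcnj12* all mutants were below all controls at both stages.

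**Figure D2:**
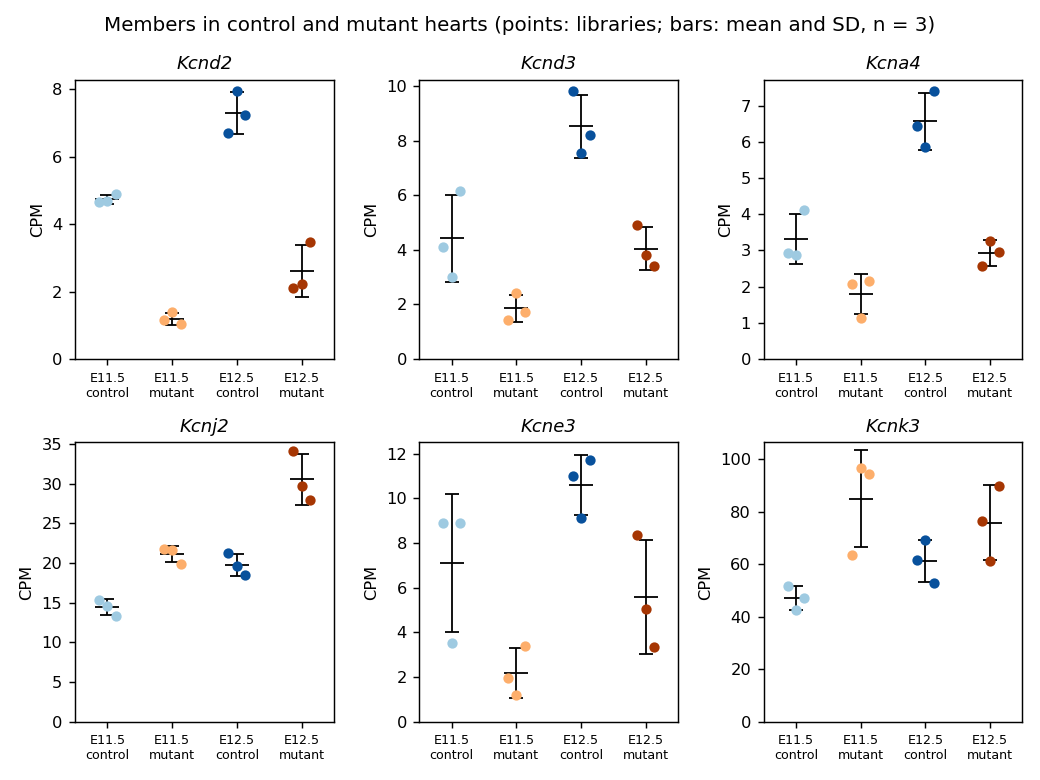
CPM of *Kcnd2*, *Kcnd3*, *Kcna4*, *Kcnj2*, *Kcne3* and *Kcnk3* in each library, by group, with the mean and SD of 3 libraries. *Kcnd2* stood between 4.64 and 4.90 CPM in E11.5 controls and between 1.04 and 1.39 in E11.5 mutants, and the control and mutant points are separate at both stages in each panel but that of *Kcnk3*, where they overlap at E12.5.

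The other members of the mutant comparison gave no call, and some of them had large values. *Kcne3*, an accessory subunit that opens KCNQ1 channels, had 8.89, 3.52 and 8.88 CPM in E11.5 controls and 1.95, 1.21 and 3.38 CPM in mutants. In E12.5 hearts it had 11.0, 9.12 and 11.7 CPM in controls and 8.37, 5.03 and 3.35 CPM in mutants. The log2 fold changes were -1.73 (SE 0.46, edgeR adjusted p = 0.21) and -0.92 (SE 0.27, edgeR adjusted p = 0.0756), and the groups did not overlap at either stage. At both stages *Kcne3* was called lower in mutants with DESeq2 and with the replicate block. At E12.5 it was also called without a filter on low counts, with sex as a covariate and without mutant replicate 1. The other fits that tested it did not call it. Of 6 macrophage markers 5 were found and tested, and these were also lower in mutants, with sums of 28.6 to 77.6 CPM in control and 11.3 to 15.5 CPM in mutant hearts at E11.5, and 78.7 to 103 and 39.4 to 58.2 CPM at E12.5. Of these *C1qb* fell at E11.5, and *Csf1r*, *Cx3cr1* and *Mrc1* fell at E12.5. Their part in the value of *Kcne3* was not tested.

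*Kcnk3* had 51.6, 42.4 and 47.0 CPM in E11.5 controls and 63.7, 96.8 and 94.4 CPM in E11.5 mutants. All mutants were above all controls, with a log2 fold change of 0.85 (SE 0.18, edgeR adjusted p = 0.133). DESeq2 and the edgeR fit of all 12 libraries called it at E11.5, with adjusted p of 0.00308 and 0.0258. At E12.5 the groups overlapped, and the log2 fold change was 0.32 (SE 0.14). *Kcnj8* (Kir6.1), the pore of the vascular ATP-sensitive channel, had 1.70, 1.34 and 1.40 CPM in E11.5 controls and 0.390, 0.725 and 0.692 CPM in E11.5 mutants, with a log2 fold change of -1.29 (SE 0.40, edgeR adjusted p = 0.278). At E12.5 *Kcnj8* had 2.24, 3.94 and 2.28 CPM in controls and 2.29, 2.34 and 2.10 CPM in mutants, which overlapped, with a log2 fold change of -0.33 (SE 0.28). *Kcnj11* (Kir6.2), the pore of the cardiomyocyte ATP-sensitive channel, had log2 fold changes of 0.20 (SE 0.16) and -0.10 (SE 0.14) at E11.5 and E12.5.

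*Kcnh2* and the pores and partners described next gave no call between genotypes. *Kcnh2* had 98.8 ± 15.2 CPM (SD, n = 3) in control and 112 ± 16.1 in mutant hearts at E11.5, and 125 ± 14.0 and 127 ± 21.5 CPM at E12.5. Its log2 fold changes were 0.18 (SE 0.16) and 0.04 (SE 0.12). *Kcnq1*, the pore of the slow delayed rectifier, had 0.09 (SE 0.20) and -0.31 (SE 0.15), and its partner *Kcne1* had -0.14 (SE 0.28) and 0.06 (SE 0.10). *Kcnq1* shares 121 exonic bases with the antisense transcript *Kcnq1ot1*. For the acetylcholine-activated channel, *Kcnj5* had 0.14 (SE 0.24) and 0.11 (SE 0.15), and *Kcnj3* had -0.38 (SE 0.45) and -0.68 (SE 0.26). *Kcna5*, an atrial Kv1 channel, had 0.26 (SE 0.29) and 0.33 (SE 0.24). *Kcnn2*, an SK channel, had 0.07 (SE 0.26) and -0.45 (SE 0.14). *Kcng2* had 0.15 (SE 0.17) and 0.13 (SE 0.13). None of these passed the test at either stage.

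The accessory subunits and the highest member of the remaining subfamilies gave no call between genotypes either. *Kcnab2*, a Kv beta subunit, had log2 fold changes of 0.19 (SE 0.28) at E11.5 and 0.60 (SE 0.22, edgeR adjusted p = 0.14) at E12.5, and *Kcnab3* had 0.90 (SE 0.44) and 0.00 (SE 0.30). *Kcnip3*, a calcium-binding KChIP, had -0.03 (SE 0.25) and 0.09 (SE 0.22). *Kcnmb4*, a BK beta subunit, had 0.02 (SE 0.30) and 0.28 (SE 0.16). *Kcnt2*, a sodium-activated channel, had -0.54 (SE 0.36) and -0.16 (SE 0.21).

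**Figure D3:**
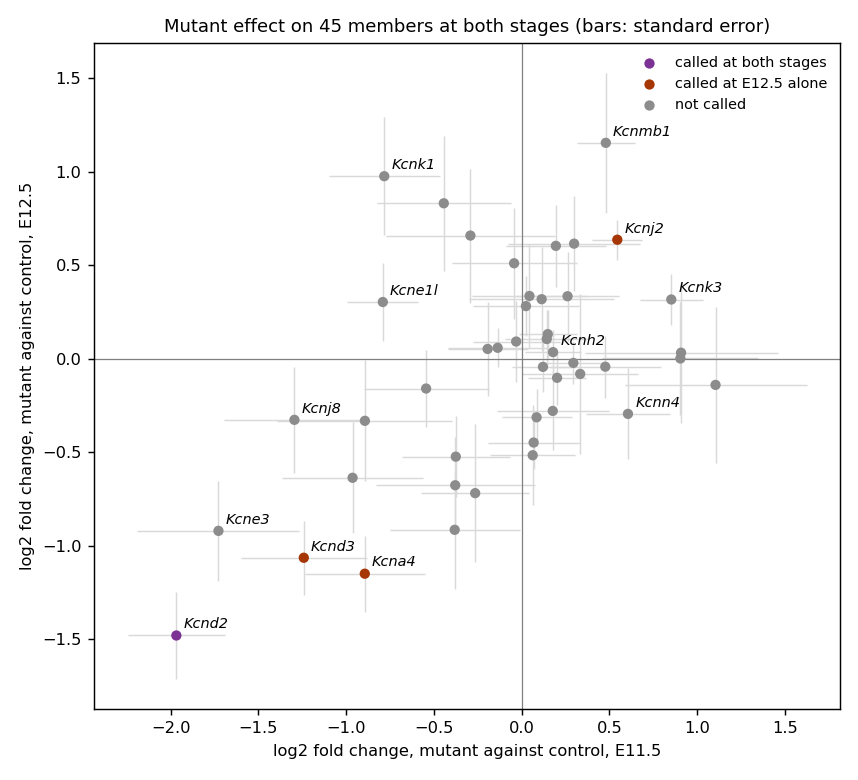
Log2 fold change of mutant against control hearts at E11.5 (x axis) and E12.5 (y axis) for 45 of the 47 members, with standard errors, each stage with libraries of its own. *Kcnd2*, called at both stages, is at the lower left with *Kcnd3*, *Kcna4* and *Kcne3*, and *Kcnk1* is at the upper left.

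Whether the mutant effect differed between the stages was tested on the E12.5 effect after subtracting the E11.5 effect. By edgeR, 0 of 45 members passed, with 4 at an unadjusted p under 0.05, beside 0% of all genes called and 4.53% with an unadjusted p under 0.05. DESeq2 also called 0 members. The log2 fold changes had the same sign at both stages for 26 of 45 members (57.8%) and 61.1% of all genes tested. Across the 45 members Pearson's r of the values at the 2 stages was 0.639, and across all genes 0.415. These are descriptions, since genes of the same hearts are not independent and a few members with large values, such as *Kcnd2*, lie at the ends.

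The second question was how the members changed from E11.5 to E12.5. In control hearts 6 of 45 autosomal members were called, beside 5.35% of all genes tested. Of these 5 rose, beside 2.88% of all genes, and 1 fell, beside 2.47%. *Kcna4*, *Kcnd3*, *Kcnc2*, *Kcnh1* and *Kcnj12* rose by 0.98, 0.94, 1.08, 1.48 and 1.13 on the log2 scale, and *Kcnmb1* fell by 1.60. The log2 fold change was above 0 for 32 of 45 members, with a median of 0.33 beside 0.01 over all genes. The groups did not overlap for 19 members that were higher at E12.5 and 4 that were lower, beside 19.5% and 18.1% of all genes. In mutant hearts 1 member was called, *Kcnn4*, which fell, beside 0.531% of all genes in either direction and 0.237% that fell. There the log2 fold change was above 0 for 32 of 45 members, with a median of 0.18 beside -0.01 over all genes. The control comparison shares its libraries with the genotype comparisons at E11.5 and E12.5, so values such as those of *Kcnd3* and *Kcna4* in both are not independent.

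*Kcnh1* (EAG1), a Kv channel of proliferating and neural cells, had 1.44, 2.11 and 1.47 CPM in E11.5 controls and 5.60, 4.28 and 4.26 CPM in E12.5 controls. In mutants it had 1.89, 1.75 and 2.08 CPM at E11.5 and 3.98, 4.15 and 3.42 CPM at E12.5. The stages did not overlap in either genotype. The log2 fold changes were 1.48 (SE 0.27, edgeR adjusted p = 0.0189) in controls and 1.01 (SE 0.25, edgeR adjusted p = 0.172) in mutants.

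*Kcnj12* had 1.83, 2.11 and 2.17 CPM in E11.5 controls and 5.27, 4.05 and 4.14 CPM in E12.5 controls, a log2 fold change of 1.13 (SE 0.25, edgeR adjusted p = 0.0285). In mutants it went from 1.30, 1.69 and 1.73 CPM to 2.97, 3.16 and 3.15 CPM, with 0.97 (SE 0.27, edgeR adjusted p = 0.242). The stages were separate in both genotypes. *Kcnc2* (Kv3.2) had 1.5, 1.66 and 2.24 CPM in E11.5 and 4.02, 2.81 and 4.63 CPM in E12.5 controls, a log2 fold change of 1.08 (SE 0.30, edgeR adjusted p = 0.0445). *Kcna4* rose by 0.98 (SE 0.23, edgeR adjusted p = 0.0311) and *Kcnd3* by 0.94 (SE 0.26, edgeR adjusted p = 0.0445) in controls, from the levels given above. *Kcnj2* rose too little to be called, with a log2 fold change of 0.45 (SE 0.12, edgeR adjusted p = 0.0448). *Kcnj3* had 1.22 (SE 0.36, edgeR adjusted p = 0.0531) and *Kcnd2* had 0.62 (SE 0.18, edgeR adjusted p = 0.0541).

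*Kcnmb1*, the BK beta subunit of smooth muscle, had 16.3, 18.0 and 16.6 CPM in E11.5 controls and 4.34, 3.04 and 9.50 CPM in E12.5 controls. All E12.5 controls were lower, replicate 3 least so, and the log2 fold change was -1.60 (SE 0.33, edgeR adjusted p = 0.0245). In mutants it had 25.4, 26.8 and 19.0 CPM at E11.5 and 10.4, 18.0 and 8.80 CPM at E12.5, with a log2 fold change of -0.94 (SE 0.26, edgeR adjusted p = 0.252). Between genotypes *Kcnmb1* was not called. Its E11.5 mutants were all above the E11.5 controls, and the groups overlapped at E12.5. Without a filter on low counts, or without E12.5 control replicate 3, it was called higher in E12.5 mutants (log2 fold change 1.16 to 1.77). Among the 6 mural cell markers, *Rgs5* and *Tagln* also fell in controls, by 1.37 (SE 0.34, edgeR adjusted p = 0.0351) and 1.18 (SE 0.14, edgeR adjusted p = 0.00343), while *Acta2* had -0.42 and *Pdgfrb*, *Notch3* and *Myh11* had 0.26, 0.10 and 0.06, and none of these 4 was called. The 6 markers, of which *Acta2* and *Tagln* were the most abundant, summed to 2143 to 2643 CPM at E11.5 and 1350 to 1834 CPM at E12.5. Their part in the fall of *Kcnmb1* was not tested.

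*Kcne1l* (KCNE5), an X-linked accessory subunit, was tested in a wider fit with the X- and Y-linked genes. It had 22.5, 26.0 and 36.0 CPM in E11.5 controls and 9.02, 11.7 and 15.7 CPM in E12.5 controls, a log2 fold change of -1.21 (SE 0.22, edgeR adjusted p = 0.0188). In mutants it had 13.7, 17.9 and 17.1 CPM at E11.5 and 11.4, 16.5 and 16.8 CPM at E12.5, which overlapped. The E11.5 mutants were all below the E11.5 controls, with a log2 fold change of -0.79 (SE 0.20, edgeR adjusted p = 0.191). All E11.5 controls were male, and with sex as a covariate the control value was -0.84 (adjusted p = 0.413, edgeR). Leaving out E11.5 control replicate 3 or E12.5 control replicate 1 or 2 gave adjusted p of 0.0531, 0.0813 and 0.0741, and over all fits of its change between stages in controls the adjusted p ran from 0.00454 to 0.413.

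*Kcnn4*, the intermediate-conductance calcium-activated channel known from red cells, had 7.67, 7.61 and 6.23 CPM in E11.5 mutants and 3.10, 2.51 and 3.15 CPM in E12.5 mutants. Each E12.5 mutant was below each E11.5 mutant, with a log2 fold change of -1.30 (SE 0.22, edgeR adjusted p = 0.045). In controls it had 5.88, 3.90 and 4.34 CPM at E11.5 and 2.76, 3.88 and 4.14 CPM at E12.5, with a log2 fold change of -0.39 (SE 0.26). Of the 6 erythroid markers 5 were found and 4 could be tested, and 3 of them, *Slc4a1* and *Hbb-bh1* included, fell in mutants between the stages. The erythroid markers summed to 3043 to 3826 CPM in E11.5 mutants and 1569 to 1997 CPM in E12.5 mutants. Their part in the fall of *Kcnn4* was not tested.

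**Figure D4:**
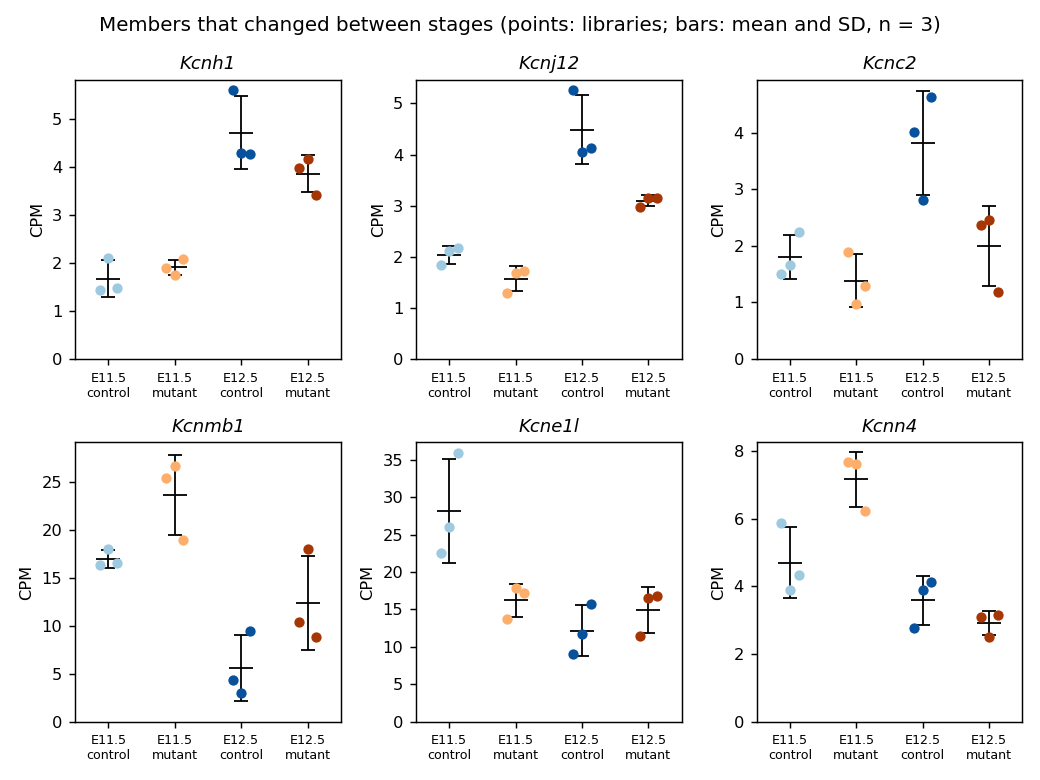
CPM of *Kcnh1*, *Kcnj12*, *Kcnc2*, *Kcnmb1*, *Kcne1l* and *Kcnn4* in each library, by group, with the mean and SD of 3 libraries. The 3 members in the upper row rose from E11.5 to E12.5 in controls, *Kcnmb1* and *Kcne1l* fell in controls, and *Kcnn4* fell from 6.23 CPM or more to 3.15 CPM or less in mutants.

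The calls between the stages rested on few libraries. With sex as a covariate, 0 of 45 members were called in controls by edgeR, and 19 genes in all instead of 655. Without E11.5 control replicate 1, or without E12.5 control replicate 1 or 2, 0 members were called, without E11.5 control replicate 3, 2 were (*Kcna4* and *Kcnd3*), and without E12.5 control replicate 3, 3 were (*Kcnh1*, *Kcnj12* and *Kcnmb1*). Without E11.5 control replicate 2, *Kcnc2* and *Kcnd3* were lost and *Kcnj3* and *Kcnk1* were gained, so that the call of *Kcnc2* was lost whichever library was left out. In those fits the log2 fold changes of the 6 members kept their sign. The call of *Kcnn4* in mutants was lost without any 1 of the libraries other than E11.5 mutant replicate 3, with log2 fold changes of -1.36 to -1.20. The exact two-sided permutation test gave p = 0.1 for each called member, the smallest p that 3 libraries against 3 allow.

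Among 16 genes for partners of potassium channels, 11 could be tested. *Abcc9*, the SUR2 subunit of ATP-sensitive channels in heart and vessels, fell at E12.5 in mutants, with 176 ± 44.4 CPM (SD, n = 3) in control and 106 ± 23.4 in mutant hearts and a log2 fold change of -0.72 (SE 0.18, edgeR adjusted p = 0.0412). No other partner was called between genotypes. In controls *Abcc8*, *Abcc9* and *Akap9*, the anchor of the KCNQ1 channel, rose from E11.5 to E12.5 by 0.71, 0.78 and 0.59 on the log2 scale. *Dpp6*, which speeds Kv4 channels, had log2 fold changes of -0.19 (SE 0.24) and 0.67 (SE 0.37) between genotypes at E11.5 and E12.5. The median of the 11 was -0.06 at E12.5.

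Of 23 other excitability genes, all tested, *Hcn2*, a pacemaker channel, was called between genotypes. It passed the limit on counts through the mutant libraries, with means of 0.461 and 0.479 CPM in controls and 3.55 and 2.58 CPM in mutants at E11.5 and E12.5. It rose in mutants by 2.91 (SE 0.39, edgeR adjusted p = 0.041) at E11.5 and 2.39 (SE 0.47, edgeR adjusted p = 0.0165) at E12.5. In E12.5 mutants *Cacna2d1*, *Atp1b1* and *Gja1* changed too little to be called. Their log2 fold changes were -0.56 (SE 0.11, edgeR adjusted p = 0.0152), -0.46 (SE 0.08, edgeR adjusted p = 0.011) and 0.49 (SE 0.12, edgeR adjusted p = 0.0375). From E11.5 to E12.5 in controls, *Cacna1c*, *Cacna1d*, *Cacna2d1*, *Ryr2* and *Gja5* rose and *Scn4b* fell. The median log2 fold change of the list was 0.33 in controls and -0.01 in mutants between the stages, beside the 0.33 and 0.18 of the potassium channel genes.

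Other cell type markers also differed between groups. Of 12 neuron markers 6 could be tested, and *Prph*, *Tubb3* and *Stmn2* rose in E12.5 mutants, of which *Prph* passed the limit on counts through the mutant libraries. *Gap43*, *Elavl4* and *Elavl3* had 0.45, -0.25 and -0.46 there and were not called. The 12, of which *Gap43*, *Stmn2* and *Tubb3* were the most abundant, summed to 55.8 to 67.0 CPM in control and 72.6 to 130 CPM in mutant hearts at E11.5, and to 50.2 to 58.7 and 89.5 to 104 CPM at E12.5, and none was at 0 in all libraries. The 6 epicardial markers summed to 519 to 792 CPM in E11.5 controls and 335 to 450 CPM in E11.5 mutants, and *Wt1*, *Upk3b*, *Upk1b* and *Tcf21* fell from E11.5 to E12.5 in controls. Erythroid markers were lower in E12.5 mutants, with sums of 1569 to 1997 CPM beside 2862 to 4521 in controls. The 6 mural markers summed to 1901 to 2191 CPM in E12.5 mutants, above the 1350 to 1834 CPM of the controls, although *Pdgfrb* of this list fell. The 6 skeletal muscle markers, of which 2 could be tested, summed to 50.1 to 64.2 CPM in E12.5 mutants, below the 65.3 to 71.7 CPM of the controls, although *Myh3* of this list rose. Of the 6 foregut and liver epithelium markers 4 could be tested, and none was called between genotypes, but 3 were higher in E12.5 mutants at an edgeR p, before adjustment, under 0.05. Their sums ran from 3.46 to 4.67 CPM in E12.5 controls and from 2.92 to 47.2 CPM in E12.5 mutants. The 4 ventricular markers summed to 5165 to 5615 CPM in E12.5 controls and 5708 to 6152 CPM in E12.5 mutants. *Myl2* and *Myl3*, the most abundant of them, had log2 fold changes of 0.10 and 0.19 there. *Irx4* and *Hey2* of this list had -0.12 and -0.17. No marker of the ventricular, endothelial, atrial, sinus node and Schwann cell lists was called between genotypes, and in the last 1 of 6 could be tested. Their part in the values of the members was not tested.

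A GAGA motif was searched because the study names it for regions bound by HIRA. GAGAGAGA, and TCTCTCTC on the other strand, were searched in the RefSeq promoters (GRCm38.p6, 250 bases before to 50 after each start site). Of the 47 members 34 matched an entry, and 2 of the 34 (5.88%), *Kcnc2* and *Kcnk1*, held the motif, beside 4.55% of all 27025 genes. The windows are shown because both genes are described here, *Kcnc2* for its rise in controls and *Kcnk1* for opposite values at the 2 stages. Capitals mark the motif, and each window is on the + strand.
Kcnc2, chr10:112269854-112269883: tggctttagatTCTCTCTCtctctctctct
Kcnc2, chr10:112271206-112271235: aggggctgagcGAGAGAGAgagagggatgg
Kcnk1, chr8:125995122-125995151: cgcgcgcgcgcacacTCTCTCTCtctctct
The promoters of *Kcnd2*, *Kcnd3*, *Kcna4* and *Kcnj2* had no match in this window. The study found HIRA-bound regions mostly in distal intergenic DNA and in introns, and no search was made outside the promoter windows. A match is a description of the letters and says nothing of binding.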

How the data were processed

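RNA-seq of 12 libraries was analysed from the files the authors deposited. Per the labels and the study's methods, reads were aligned with Bowtie2 to mm10 and normalised with DESeq. The counting program, annotation and use of strand are not given in the sources used here. The authors deposited the mean of raw counts per group (expected counts, since a mean can hold a fraction) and a table of values named RPKM, treated here as a score because each value is a whole count multiplied by a gene length and a library factor. The authors' fold changes, z scores and p-values were not used.

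Whole counts were recovered for 17827 genes, each within 7.57e-10 of a whole number, from the condition that they average to the deposited means. Another 944 genes, on X and Y and elsewhere, are outside the authors' comparisons, and for 447 of them counts were recovered from the greatest common divisor of a gene's values, a method that was right for 99.97% of the 12243 genes with known counts and a mean of at least 20. Recovery was tested on simulated data.

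The design assumed counts, and edgeR 4.0.16 (quasi-likelihood, TMM scaling, R 4.3.3, limma 3.58.1) tested 12243 genes with a mean of at least 20 counts, separately for each pair of groups and over all 12 libraries for the difference between stages. Adjusted p is Benjamini-Hochberg over all genes tested. CPM uses TMM-scaled library sizes, and RPKM is CPM per kilobase of the gene length recovered together with the counts. The scale of these lengths was set from annotated gene lengths. For 904 genes of the authors' comparisons the recovered length equalled the exonic length of GENCODE vM21. The fits were tested on simulated data. Alternatives were other filters, median-ratio scaling, DESeq2 1.42.0, no fold threshold, 1 fit of all libraries, sex as a covariate (male at 100 or more Y-linked counts), the replicate number as a block, X and Y genes added, and each library left out. For X-linked members, the wider fit with sex or with libraries left out was chosen after seeing the data. Exonic overlaps are from GENCODE vM21 on GRCm38.

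Genes named are members called in any comparison, members of the known cardiac currents, the highest member of each subfamily and those at the limit. *Kcne3*, *Kcnk1*, *Kcnip4*, *Kcnma1* and *Kcnip2* were named after their values were seen. Some genes that this rule names are counted but not reported here by name, and are left out of the plots. The members and lists were chosen with earlier results of these data known. Errors are the spread between libraries, which includes counting error.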

Additional observations from a re-analysis of the deposited data

Results flagged for a closer look

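*Kcnk1*, a K2P channel, moved in opposite directions in the mutant hearts of the 2 stages. It had 4.05, 2.50 and 4.62 CPM in E11.5 controls and 2.47, 1.93 and 2.08 CPM in E11.5 mutants, so that every mutant was lower, though by little against replicate 2. At E12.5 it had 1.65, 1.18 and 2.35 CPM in controls and 3.04, 2.69 and 4.40 CPM in mutants, so that every mutant was higher. On the log2 scale the effects were -0.78 (SE 0.32) at E11.5 and 0.98 (SE 0.32) at E12.5, and their difference was 1.75 (SE 0.45, edgeR unadjusted p = 0.00196 and adjusted p = 0.454), which did not pass the test. An antisense transcript shares 179 exonic bases with *Kcnk1*.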

How the results depend on the processing

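At E11.5 the number of members called in mutants, 1 in the report, was 4 with DESeq2 (*Kcnd2*, *Kcne3* and *Kcnk3* among them), 3 with all 12 libraries in one fit, 2 with the replicate block, 0 with sex as a covariate, 0 at a mean of at least 100 counts and 0 to 0 with each library left out. At E12.5 it was 5, and 1 at a mean of at least 100 counts, where 14 members are left, 4 to 7 under the other alternatives and 5 to 6 with each library left out. *Kcna4* and *Kcnd2* were called in every E12.5 fit that tested them. From E11.5 to E12.5 in controls it was 6, and 0 with sex as a covariate, 1 at a mean of at least 100 counts, 4 to 9 under the others and 0 to 6 with each library left out. In mutants it was 1, and 3 with DESeq2, 2 with all 12 libraries in one fit, 0 with the replicate block, 0 with sex as a covariate, 0 at a mean of at least 100 counts and 0 to 1 with each library left out. The cause of these shifts was not tested, other than that fewer members are tested at 100 counts. The difference between stages gave 0 members throughout. Same-numbered libraries had correlations of their deviations between -0.11 and 0.42. In the E11.5 genotype comparison these were -0.04, 0.42 and 0.30, so not every pair deviated together, and the libraries were taken to share only a number. The replicate block gave 73 genes at E11.5, and 7 members at E12.5 and 8 in controls between stages. All genes called at E11.5 numbered 14, and 256 with DESeq2. No value of a named member that was called changed sign. Depth limits the low members, such as *Kcnj8* with a mean of 8.67 counts in E11.5 mutants.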
